A study of Mus musculus with 7 samples.

Results

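The levels of 10 genes of the oxidative stress response and of iron storage were followed in single cells of the mouse mammary gland: Hmox1, Sqstm1, Nqo1, Gclm, Gclc, Txnrd1, Srxn1, Slc7a11, Fth1 and Ftl1. They were chosen by symbol, with earlier results of these data known, so counts of them against all genes are descriptive. They make up 10 of the 27998 genes counted, and all 10 had UMIs (unique molecular identifiers, each marking 1 captured RNA molecule). The cells came from the #4 abdominal glands, with lymph nodes removed, of 3 young (3 to 4 months) and 4 aged (13 to 14 months) female mice. All mice were virgin, of a mixed FVB, 129 and C57BL/6J background, and were taken in diestrus. The comparison of young with aged mice asks how each cell type changes with age, and the mouse is the replicate throughout.

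Many of these genes are known targets of NRF2 (encoded by Nfe2l2), a transcription factor that KEAP1 marks for degradation until oxidants or electrophiles block KEAP1. NRF2 pairs with small MAF proteins on antioxidant response elements, and BACH1 competes for such sites at Hmox1 and the ferritin genes. Ferritin is a protein shell that stores iron, built from a heavy chain (Fth1), which oxidises iron, and a light chain (Ftl1), which helps to form the mineral core; its translation is also set by iron.

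The DNA before the start sites is shown because several of these genes rose together below, and because antioxidant response elements are short enough to look for. Promoters were found for 8 of the 10 genes, at 11 start sites, in RefSeq on GRCm38.p6, and the 250 bases before each start were searched on both strands. The letters TGACNNNGC or TGAGNNNGC of an antioxidant response element stood at 4 of the 11 starts, in 4 genes, against 23% of all 32851 promoters. TGANTCA (AP-1) stood before Srxn1 and TGATGNAA (C/EBP-ATF) before Slc7a11, against 6.75% and 3.45% of all promoters. The AP-1 letters can lie inside TGAGNNNGC, as they do once before Srxn1. Below, capitals mark every match, read 5′ to 3′ on the strand of the gene.
Srxn1, chr2:152105274-152105523, + strand: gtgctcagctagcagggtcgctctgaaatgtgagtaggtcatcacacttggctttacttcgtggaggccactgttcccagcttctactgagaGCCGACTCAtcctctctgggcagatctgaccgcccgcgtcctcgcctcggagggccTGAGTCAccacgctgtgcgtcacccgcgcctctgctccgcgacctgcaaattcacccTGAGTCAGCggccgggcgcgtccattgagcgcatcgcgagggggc
Slc7a11, chr3:50443614-50443863, - strand: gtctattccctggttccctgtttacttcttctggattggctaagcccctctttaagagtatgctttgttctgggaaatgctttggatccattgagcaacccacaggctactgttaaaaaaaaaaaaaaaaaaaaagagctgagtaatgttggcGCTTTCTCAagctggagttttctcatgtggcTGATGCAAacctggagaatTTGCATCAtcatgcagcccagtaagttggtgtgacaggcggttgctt
Gclm, chr3:122245307-122245556, + strand: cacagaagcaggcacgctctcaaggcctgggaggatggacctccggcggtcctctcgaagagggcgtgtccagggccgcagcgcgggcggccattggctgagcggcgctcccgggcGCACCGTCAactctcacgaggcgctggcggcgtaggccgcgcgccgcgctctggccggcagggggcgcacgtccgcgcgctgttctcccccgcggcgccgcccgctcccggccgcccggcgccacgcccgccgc
Txnrd1, second of its 3 starts, chr10:82858956-82859205, + strand: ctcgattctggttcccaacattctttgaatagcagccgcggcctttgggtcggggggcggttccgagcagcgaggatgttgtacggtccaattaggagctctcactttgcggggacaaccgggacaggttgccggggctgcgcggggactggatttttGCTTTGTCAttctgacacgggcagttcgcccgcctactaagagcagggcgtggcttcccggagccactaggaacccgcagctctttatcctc
Srxn1 held 2 antioxidant response element matches, of which the nearer spanned bases 45 to 37 before the start and contained 1 of its 2 AP-1 matches. Slc7a11 held 1 such match at bases 97 to 89 and 2 C/EBP-ATF matches at bases 66 to 59 and 47 to 40, the second in the reverse direction. Gclm had its match at bases 134 to 126 and Txnrd1 at bases 92 to 84, both written on the opposite strand. No match was found in these windows for Sqstm1, Nqo1, Fth1 or Ftl1. A match is a string of letters and not a measured binding site.

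The 7 libraries held 1264 to 2865 cells and 6652599 to 16999625 UMIs each, 13684 cells in all, with a median of 4758.5 to 7109.5 UMIs per cell. The 13 cell types are those named by the authors, and each of 12 marker lists was highest in its own type (HS-AV cells, which are hormone-sensing alveolar luminal cells, have no list of their own). Of the 13583 distinct barcodes, 101 occurred in more than 1 library. The libraries of the young and the aged mice write their barcodes in different forms, so age and library handling cannot be told apart. Macrophage markers in cells that are not immune cells were also higher in young libraries: in AV cells (alveolar luminal progenitors) their summed level was 77.3 to 117 CPM (UMIs scaled to the same total in every library) in young and 2.58 to 10.2 CPM in aged mice. Fewer cells of a type do not enter these values, which are shares of the RNA of that type, but a change in RNA per cell cannot be seen.

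Ferritin RNA was abundant in every cell type and highest in macrophages. Fth1 (chr19:9980598-9985098) and Ftl1 (chr7:45457944-45459884) together supplied 5.03% ± 1.06 (SD, n = 7 mice) of all UMIs in Mb macrophages (the Mmp12-expressing macrophages) and 2.97% ± 0.475 (n = 3) in Ma macrophages (the Mrc1- and Cd163-expressing ones). Fibroblasts had 1.32% ± 0.113 (n = 7) and HS cells, the hormone-sensing luminal cells, had the least at 0.377% ± 0.0348 (n = 7). In lymphatic endothelial cells the heavy chain stood out: the Fth1 mean was 10946 CPM beside 2471 CPM for Ftl1, a ratio of 4.66 over 5 mice with a range of 3.11 to 6.71. Those mice had only 3 to 7 such cells each. Ma macrophages had the lowest ratio, 0.461, with a range of 0.448 to 0.481 over 3 mice. UMI counts mark the 3′ ends of molecules and were not divided by gene length, and reads shared with ferritin pseudogenes may be missing, so the ratio is read as a difference between cell types or ages and not as a count of subunits.

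The other 8 genes each had their own order of cell types. Slc7a11, the cystine-importing subunit of the cystine-glutamate exchanger, was highest over all mice in Mb macrophages (539 CPM), then in dendritic cells (112 CPM) and vascular endothelial cells (84.5 CPM), with a mean of at most 33.4 CPM in each other type. In young mice alone it was 239 CPM in Mb macrophages, 74.5 CPM in dendritic cells, 16.1 CPM in vascular endothelial cells and 15.3 CPM in pericytes. Nqo1, a quinone reductase, was highest over all mice in lymphatic (80.4 CPM) and vascular endothelial cells (38.5 CPM), then in AV cells (20.5 CPM). In young mice alone AV cells (20.6 CPM) lay above vascular endothelial cells (16.8 CPM). The lymphatic value rests on 12 UMIs in all, from 3 to 7 cells per mouse. Gclm and Gclc encode the modifier and the catalytic subunit of the enzyme that starts glutathione synthesis. Over all mice Gclm was highest in myoepithelial cells (203 CPM) and HS cells (143 CPM), and in young mice alone HS cells (135 CPM) lay above myoepithelial cells (126 CPM). Over all mice Gclc was highest in HS cells (45.1 CPM) and low in AV cells (7.39 CPM). In young mice alone Gclc was higher in T and B cells (78.7 CPM, from 8 UMIs over all mice) than in HS cells (54.1 CPM). Hmox1, which breaks down heme, ranged from 25.5 CPM in HS-AV cells to 1634 CPM in vascular endothelial cells, and in young mice alone it was highest in Ma macrophages at 992 CPM. Of the 120 pairs of neighbours in these 10 orders, 5 differed at an exact two-sided sign-flip p below 0.05 and none did after adjustment (smallest adjusted p = 0.469). With 7 mice the smallest p such a test can give is 0.0156, and with fewer mice it is larger. Over 120 pairs an adjusted p below 0.05 was thus almost out of reach. The lack of calls does not show that neighbours were alike.

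**Figure D1:**
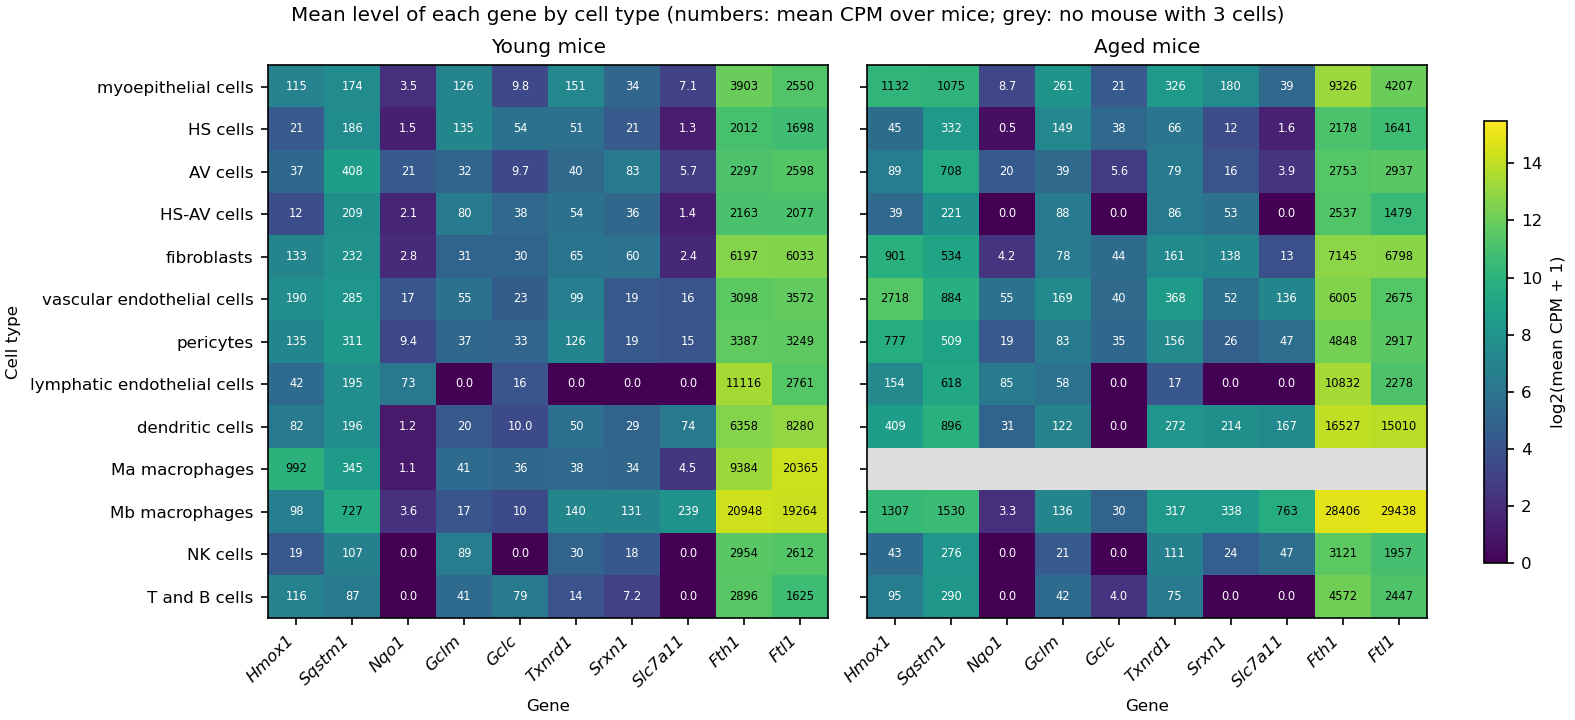
Mean level of each gene (columns) in each cell type (rows) in young mice, left, and aged mice, right; colour is log2(mean CPM + 1), numbers are mean CPM, and grey marks Ma macrophages, of which no aged mouse had 3 cells. Ferritin is bright in macrophages and dendritic cells, Hmox1 goes from 189.6 to 2718 CPM in vascular endothelial cells, and zeros in rare types rest on few cells.

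With age, these genes rose together in 2 cell types above all. In myoepithelial cells, the contractile basal layer of the ducts, 8 of the 9 genes that passed the filter on low counts were higher in aged mice (edgeR quasi-likelihood test on sums per mouse, Benjamini-Hochberg adjusted p below 0.05 and at least 1.5-fold), against 12.8% of all 6740 genes tested. Slc7a11, 1 of these 8, passed the filter there through the aged mice, since only Young C of the young mice reached it. Its place in the count is therefore not support apart from that filter. In vascular endothelial cells 9 of 10 were higher, against 14.7% of 7864 genes. Their median log2 change was 1.41 and 2.01, beside 0.01 and -0.05 over all genes tested. Fibroblasts had 3 of 8 higher (2.07% of genes), pericytes 2 of 6 (7.19%), HS cells 1 of 8 (3.93%) and Mb macrophages 1 of 7 (0.931%). The gene called in Mb macrophages was Hmox1, which also passed the filter through the aged mice, so that count is not support apart from the filter. None of the 10 passed in AV cells (2.9% of genes) and none of the 3 tested in T and B cells (0.219%). No member was called lower in any of the 8 types, where 14.8% (myoepithelial), 12% (vascular endothelial), 1.11% (fibroblasts), 4.61% (pericytes), 2.33% (HS), 0.233% (Mb macrophages), 3.26% (AV) and 0.438% (T and B cells) of genes were. Counted instead by whether the 2 ages overlapped, 7 of 9 genes did not overlap in myoepithelial cells (35.7% of all genes tested) and 7 of 10 in vascular endothelial cells (36.8%). The same held for 3 of 8 in fibroblasts (15.9%), 2 of 6 in pericytes (24%), 1 of 8 in HS cells (21.5%), 4 of 10 in AV cells (22.3%), 6 of 7 in Mb macrophages (17.5%) and 3 of 3 in T and B cells (15.3%). Among these, Hmox1 in Mb macrophages and Sqstm1 in T and B cells passed the filter on low counts through the aged mice. No young mouse reached it for Sqstm1 in T and B cells. Their places in these counts are therefore not support apart from that filter.

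**Figure D2:**
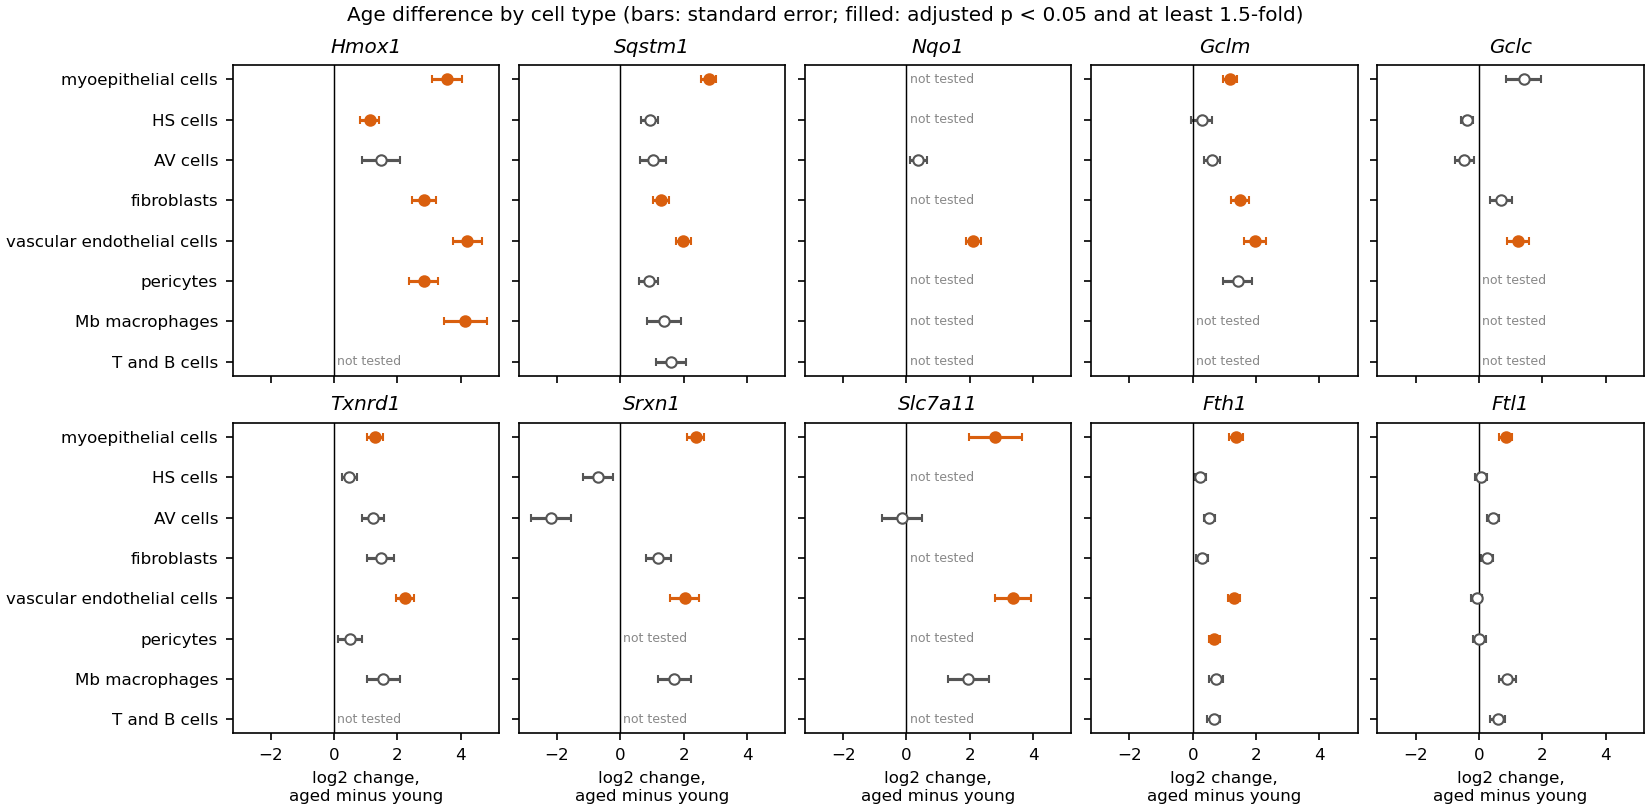
Log2 change with age (aged minus young, horizontal axis) of each gene in 8 cell types, with the standard error as a bar; filled points passed an adjusted p of 0.05 with at least 1.5-fold. Hmox1 is filled in 6 of its 7 tested types, while the AV cell points are all open and Srxn1 lies at -2.20 there.

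Hmox1 (chr8:75093621-75100589) showed the widest rise. Its level in vascular endothelial cells was 64.8, 178 and 264 CPM (scaled by TMM, as are all levels by mouse from here on) in the 3 young mice and 1503, 2825, 3983 and 3938 CPM in the 4 aged mice. The groups were far apart, with a log2 change of 4.21 ± 0.45 (SE; adjusted p = 2.32e-05), an 18.5-fold rise. Myoepithelial cells had 55.1, 151 and 126 CPM in young mice and 364, 1271, 1814 and 1387 CPM in aged mice. There too the groups did not overlap, although Aged A lay well below the other aged mice (log2 change 3.57 ± 0.47, adjusted p = 7.08e-05). Fibroblasts rose from 136 ± 78.4 (SD, n = 3) to 969 ± 227 CPM (n = 4), a log2 change of 2.84 ± 0.39 (adjusted p = 0.00162), from 15 to 121 fibroblasts per aged mouse. Pericytes, the mural cells of small vessels, rose from 73, 68.2 and 293 CPM to 823, 692, 1528 and 723 CPM (log2 change 2.83 ± 0.47, adjusted p = 0.00238), with no overlap between ages. Markers of myoepithelial cells also rose in pericytes, from 2107 to 2671 CPM in young to 5907 to 12685 CPM in aged mice as a sum over 7 genes (4 of 4 tested higher), and those of AV cells from 361 to 680 CPM to 577 to 2495 CPM (3 of 4 tested higher). Their part in the pericyte calls of Hmox1 and Fth1 was not tested.

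Macrophages and luminal cells were less secure for Hmox1. The Mb macrophages of the aged mice, only 3 to 9 cells per mouse, had 1090.4 to 2043 CPM against 24 to 212 CPM in young mice (log2 change 4.15 ± 0.68, adjusted p = 0.0382). That call was lost without any of Young B, Aged A, Aged C or Aged D, although the log2 change stayed between 4.03 and 4.35 in those fits. Only Young C of the young mice reached the filter on low counts there, so Hmox1 passed it through the aged mice. HS cells had 15.7, 16.9 and 27.4 CPM in young and 36.4, 30.9, 56.7 and 62.4 CPM in aged mice (log2 change 1.12 ± 0.29, adjusted p = 0.0461). This smaller rise was called in the full set and without Aged B, and lost without any other single mouse (log2 change 0.94 to 1.46). AV cells had 5.55, 31.4 and 65.2 CPM in young and 104, 54.3, 155 and 77.6 CPM in aged mice, which overlapped (log2 change 1.48 ± 0.61, adjusted p = 0.174).

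Sqstm1 (chr11:50199366-50210827) encodes p62, an autophagy adaptor that binds KEAP1 and is itself an NRF2 target. Myoepithelial cells had 129, 197 and 181 CPM of it in young mice and 1001, 994, 1318 and 1232 CPM in aged mice. The spread within each age was small beside the gap, and the log2 change was 2.79 ± 0.23 (adjusted p = 1.17e-06). Vascular endothelial levels were 158, 278 and 322 CPM in young and 802, 780.1, 1198 and 1214 CPM in aged mice, again without overlap (log2 change 1.99 ± 0.25, adjusted p = 6.57e-05). Fibroblasts had 164, 262 and 279 CPM against 698, 496, 618 and 475 CPM (log2 change 1.30 ± 0.25, adjusted p = 0.0117). The 4 aged fibroblast values all lay above the young ones. In the luminal layer the values overlapped: AV cells had 150.3 to 524 CPM in young and 471 to 1123 CPM in aged mice (log2 change 1.05 ± 0.41, adjusted p = 0.158), and HS cells 122 to 227 against 219 to 397 CPM (log2 change 0.92 ± 0.26, adjusted p = 0.0571). Leaving out Aged B brought Sqstm1 in HS cells past the threshold (log2 change 1.09, adjusted p = 0.0196).

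**Figure D3:**
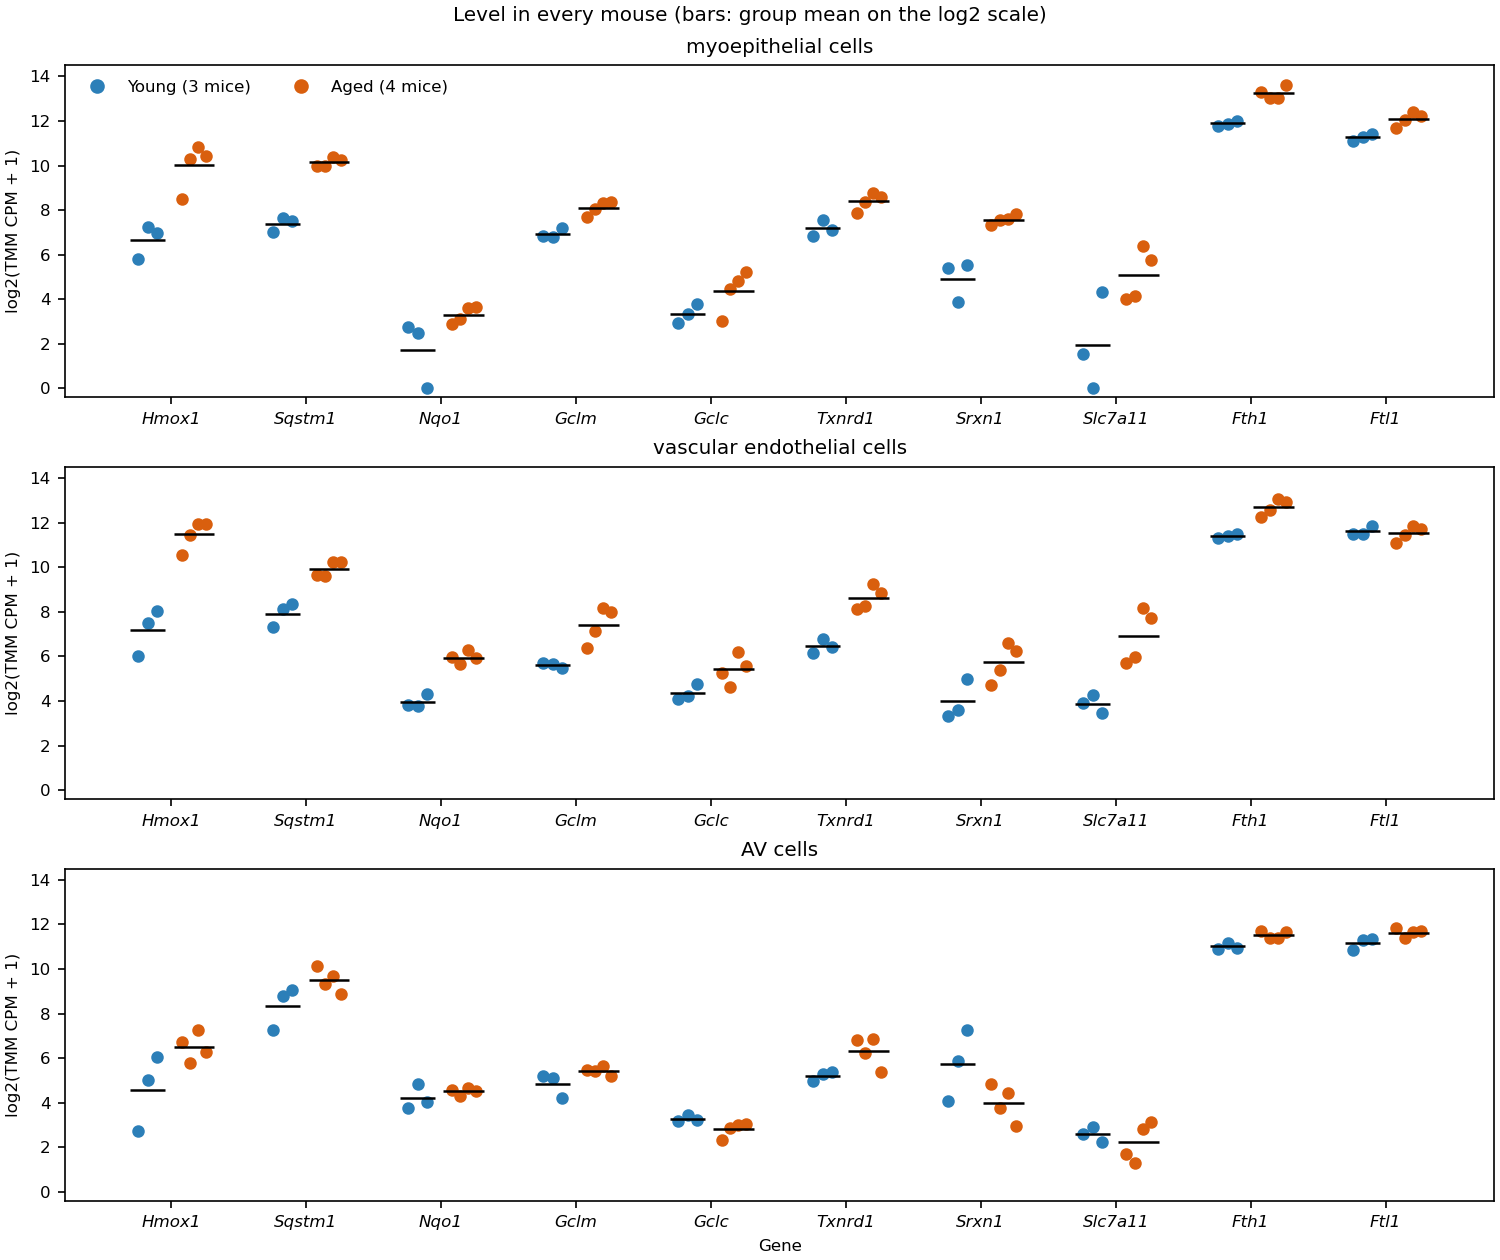
Level of each gene in every mouse as log2(TMM-scaled CPM + 1) in myoepithelial, vascular endothelial and AV cells; blue points are the 3 young mice, orange points the 4 aged mice, and bars the mean on the log2 scale. Sqstm1, Gclm, Txnrd1 and Fth1 separate by age in the upper and middle panels, and Srxn1 leans the other way in AV cells.

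Of the glutathione genes, Slc7a11 and Gclm were called in both of these types and Gclc in vascular endothelial cells. Slc7a11 (chr3:49892526-50443614) in vascular endothelial cells had 14, 18.5 and 9.93 CPM in young mice and 51.8, 62.4, 291 and 211 CPM in aged mice. Aged C and Aged D were several times higher than Aged A and Aged B, and all 4 lay above every young mouse (log2 change 3.37 ± 0.56, adjusted p = 6.13e-04). In myoepithelial cells it was rare, with 203 UMIs in all, and the ages overlapped: 1.9, 0 and 19.4 CPM in young against 15.3, 16.8, 81.7 and 53 CPM in aged mice (log2 change 2.81 ± 0.85, adjusted p = 0.0209). That call was lost without Young A (log2 change 1.73) or Young B (log2 change 2.58), and with DESeq2 (2.66).

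Gclm (chr3:122245557-122270732), the modifier subunit, was 114, 110.1 and 145 CPM in young and 206, 261, 315 and 326 CPM in aged myoepithelial cells (log2 change 1.17 ± 0.22, adjusted p = 0.001). Vascular endothelial cells rose from 51.2, 50.1 and 43.4 CPM to 83.2, 141, 288 and 250.5 CPM (log2 change 1.97 ± 0.34, adjusted p = 7.20e-04). All aged values exceeded all young values in both types, as they did in fibroblasts. The fibroblast levels were 32.1, 26 and 35 CPM in young against 97.9, 90.8, 38.6 and 111 CPM in aged mice (log2 change 1.50 ± 0.28, adjusted p = 0.00914), and the call was lost without Aged A (log2 change 1.42). Gclc (chr9:77754535-77794485), the catalytic subunit, was called only in vascular endothelial cells (16.1, 18 and 26.1 CPM against 37.4, 23.8, 73.4 and 46.8 CPM, log2 change 1.24 ± 0.34, adjusted p = 0.0138). Aged B lay within the young range there, and the call was lost without Young A (1.09) or Young B (1.18). In myoepithelial cells Gclc had a log2 change of 1.41 ± 0.55 with an adjusted p of 0.0662, and without Aged A it passed (1.70, adjusted p = 0.00879).

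Txnrd1 (chr10:82833951-82897712) encodes the cytosolic thioredoxin reductase and Srxn1 (chr2:152105516-152111376) sulfiredoxin, which repairs over-oxidised peroxiredoxins. Txnrd1 in vascular endothelial cells was 70.1, 107 and 85.7 CPM in young and 278, 303, 616 and 462 CPM in aged mice, a rise with no overlap (log2 change 2.24 ± 0.27, adjusted p = 5.54e-05). The myoepithelial rise was smaller, from 114, 188 and 139 CPM to 235, 333, 431 and 386 CPM (log2 change 1.29 ± 0.25, adjusted p = 0.00114). Fibroblasts had a log2 change of 1.47 ± 0.42 and AV cells of 1.23 ± 0.34, with adjusted p of 0.0771 and 0.0617. Txnrd1 passed in AV cells without Aged D (log2 change 1.44) and in fibroblasts without Young C (1.97) or Aged B (1.74).

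The age difference of Srxn1 was not alike in myoepithelial and AV cells (its test is given with the others between cell types). Myoepithelial cells went from 40.8, 13.8 and 45.2 CPM in young to 160.5, 188, 192 and 225 CPM in aged mice, with closely grouped aged values (log2 change 2.39 ± 0.27, adjusted p = 1.81e-05). AV cells had 15.6, 57.8 and 152 CPM in young and 27.2, 12.5, 20.8 and 6.83 CPM in aged mice. These ages overlapped, since Young A lay among the aged mice, and the log2 change was -2.20 ± 0.63 (adjusted p = 0.0651). Without Young A the AV difference passed the threshold (log2 change -2.70, adjusted p = 0.0239). Vascular endothelial cells rose from 17.1 ± 12.1 (SD, n = 3) to 59.2 ± 31.9 CPM (n = 4), a log2 change of 2.03 ± 0.46 (adjusted p = 0.005), with Aged A inside the young range. Fibroblasts had a log2 change of 1.21 ± 0.40 (adjusted p = 0.116), and passed without Young C (1.89).

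Nqo1 (chr8:107388225-107403206) had enough counts for a test by age only in AV and vascular endothelial cells. Endothelial levels were 13.2, 12.6 and 18.6 CPM in young and 61.5, 49, 76.3 and 59.6 CPM in aged mice. That is a clear gap with a log2 change of 2.11 ± 0.23 (adjusted p = 2.39e-05). AV cells had 18.7 ± 8.24 and 22.1 ± 2.33 CPM, and the difference was within the spread (log2 change 0.37 ± 0.27, adjusted p = 0.443).

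The 2 ferritin chains did not move alike. Fth1 rose in myoepithelial cells from 3549, 3779 and 4107 CPM to 10141, 8449, 8252 and 12661 CPM (log2 change 1.37 ± 0.22, adjusted p = 2.71e-04). In vascular endothelium it rose from 2578, 2719 and 2904 CPM to 4818, 6006, 8428 and 7801 CPM (log2 change 1.31 ± 0.18, adjusted p = 1.58e-04). Pericytes had 3548, 3621 and 3798 CPM against 6909, 5230.2, 6420.4 and 4834 CPM (log2 change 0.68 ± 0.17, adjusted p = 0.0223). All aged values exceeded the young in these 3 types, but the pericyte call was lost without Young A (log2 change 0.65), Young B (0.67), Young C (0.70) or Aged A (0.57). Ftl1 was called in myoepithelial cells only, where 2209, 2527 and 2732 CPM stood against 3296, 4275, 5422 and 4832 CPM (log2 change 0.84 ± 0.21, adjusted p = 0.00754), and that call was lost without Young A (log2 change 0.74). Its vascular endothelial levels overlapped fully, at 2899, 2870.1 and 3693 CPM in young and 2171, 2752, 3709 and 3411 CPM in aged mice (log2 change -0.07 ± 0.18, adjusted p = 0.814).

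The ratio of Fth1 to Ftl1 within each library does not depend on how libraries are scaled. In vascular endothelial cells it was 0.889, 0.947 and 0.786 in the young mice, with a geometric mean of 0.872, and 2.22, 2.18, 2.27 and 2.29 in the 4 aged mice. The aged values lay close together and the log2 ratio differed by 1.36 (exact two-sided permutation p = 0.0286, the smallest that 3 against 4 mice can give; adjusted p = 0.114 over 8 types). Pericytes had 2.33, 1.62, 1.42 and 1.42 in aged mice against a young geometric mean of 1.06, with the same exact p of 0.0286 and adjusted p of 0.114. Myoepithelial cells had 3.08, 1.98, 1.52 and 2.62 in aged mice against 1.53 (exact p = 0.114, adjusted p = 0.305). The remaining 5 types differed by -0.18 to 0.15 on the log2 scale with exact p of 0.4 or more. No type passed after adjustment. An adjusted p below 0.05 would have needed most of the 8 types to reach the smallest exact p, 0.0286, at once. The lack of a pass therefore does not show that the ratio was unchanged.

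**Figure D4:**
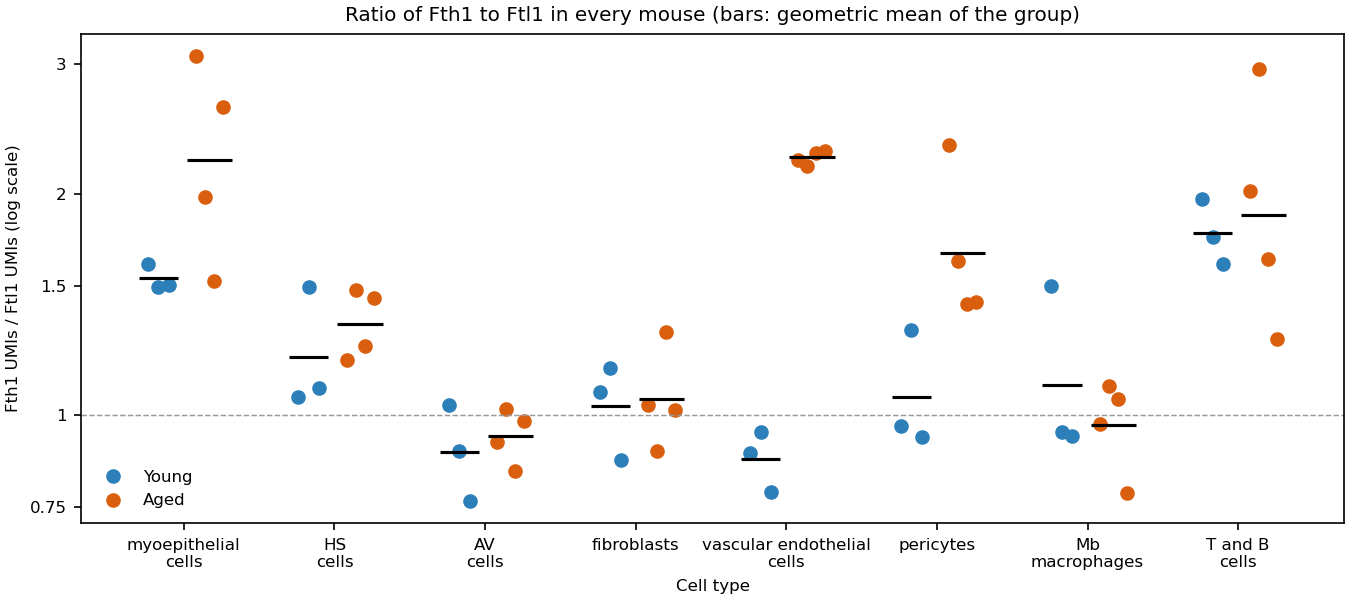
Ratio of Fth1 to Ftl1 UMIs (log axis) in every mouse for 8 cell types; blue points are young, orange points aged mice, bars the geometric mean of the group, and the dashed line a ratio of 1. The 4 aged vascular endothelial values sit together near 2.24, above the young mean of 0.872, while AV cells and fibroblasts stay near 1 at both ages.

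Whether the age difference itself differed between cell types was tested within the same mice. Between myoepithelial and AV cells it differed for 5 of 10 genes, against 9.25% of all 9434 genes. All 5 rose more in myoepithelial cells: Srxn1 by 4.23 ± 0.62 on the log2 scale (adjusted p = 4.48e-04), Slc7a11 by 3.04 ± 0.79 (0.0215), Gclc by 1.92 ± 0.53 (0.0297), Sqstm1 by 1.73 ± 0.34 (0.00386) and Fth1 by 0.98 ± 0.18 (0.0023). Hmox1 had a difference of 1.73 ± 0.58 there (adjusted p = 0.066). Gclc lost this call without any 1 mouse other than Aged A (1.61 to 2.13) and Slc7a11 without Young A (1.95) or Young B (2.60). Both lost it without the mouse as a block, which left 3 of the 5, and leaving out Aged A gave 7 genes. Between myoepithelial and vascular endothelial cells 4 of 10 differed, against 15.3% of genes: Ftl1 (0.96 ± 0.17, adjusted p = 3.54e-04) and Sqstm1 (0.78 ± 0.21, adjusted p = 0.0117) rose more in myoepithelial cells. Hmox1 (-0.89 ± 0.26, adjusted p = 0.0211) and Txnrd1 (-0.90 ± 0.23, adjusted p = 0.00789) rose more in vascular endothelial cells. Ftl1 alone of the 4 kept its call without the block. Hmox1 lost its call without Young A (-0.72), Young B (-0.80) or Aged A (-0.67), and Sqstm1 without Young C (0.64).

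Fibroblasts and vascular endothelial cells differed in 2 of 10 genes, against 5.7% of genes. Hmox1 (difference -1.27 ± 0.32, adjusted p = 0.0225) and Fth1 (-0.97 ± 0.17, adjusted p = 0.00171) both rose more in vascular endothelium. Leaving out Aged A gave 4 such genes and leaving out Aged B (-1.17), Aged C (-1.16) or Aged D (-1.24) lost Hmox1, as did the fit without the block (-1.36), which left 1. HS and AV cells, the 2 luminal types, differed in none of the 10 genes, against 2.41% of genes, and 3 of them (Nqo1, Txnrd1 and Srxn1) had an unadjusted edgeR p below 0.05. In AV cells alone 7 of 10 genes had an unadjusted p below 0.05, and DESeq2 called Txnrd1, so the missing calls in luminal cells do not show that these genes were unchanged. All 3 genes tested in T and B cells (Sqstm1, Fth1 and Ftl1) were also below 0.05 unadjusted, with none called by DESeq2, and each was higher in every aged than in every young mouse. Sqstm1 passed the filter on low counts there through the aged mice only, so its values are not support apart from that filter.

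Technical measures moved with age in some of the same cells. Red blood cell genes in vascular endothelial cells summed to 2020.5 to 5271 CPM in young and 7 to 359 CPM in aged mice, and the 4 of 5 genes that could be tested were all lower in aged mice. In pericytes the same genes summed to 13.7 to 51 CPM in young and 5.3 to 16052 CPM in aged mice. Macrophage markers in vascular endothelial cells were 43.6 to 100.3 CPM in young and 7.13 to 29.7 CPM in aged mice. Dropping every cell with a UMI of 6 macrophage genes left all calls by age of the cell types that are not immune cells in place. Of 12 genes known to respond to tissue dissociation, 1 was higher (Ier2) and 1 lower (Fosb) in aged myoepithelial cells (12.8% and 14.8% of all genes), and 1 was higher (Atf3) and 2 lower (Fosb among them) in vascular endothelial cells (14.7% and 12%). Pericytes had 5 higher and 1 lower (7.19% and 4.61% of all genes), and fibroblasts had 1 lower and 2 higher (1.11% and 2.07%), the heat shock genes Hspa1a and Hspa1b (log2 change 3.40 and 2.56). The part of these measures in the members' calls was not tested, other than by leaving out the cells with macrophage RNA.

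The rises were seen as more cells with a UMI, as more UMIs per such cell, or as both. The shares of cells are means over mice, while UMIs per such cell are taken over all cells of an age. In vascular endothelial cells, thinned as below, Nqo1 had 1.075 UMIs per such cell in young and 1.094 in aged mice, and Gclc 1.04 and 1.10. Those 2 rises lay mainly in the share of cells. With every cell thinned to 2000 UMIs, Hmox1 was found in 11.7% ± 5.44 (SD, n = 3) of young and 60.2% ± 16.3 (n = 4) of aged myoepithelial cells (28.3% and 73.7% unthinned). Among vascular endothelial cells it was found in 25.7% ± 12.8 of young and 60% ± 12.2 of aged cells (43% and 69.4% unthinned), with 1.44 and 9.51 UMIs per cell that had any. Sqstm1 went from 27.5% ± 6.37 to 79.2% ± 6.81 of myoepithelial cells, and Srxn1 from 6.76% ± 5.5 to 24.7% ± 1.08. Slc7a11 had a UMI in 15.3% ± 10.2 of aged vascular endothelial cells against 2.36% ± 0.349 in young mice (25.7% and 4.68% unthinned), and a cell without a UMI may still express it. Fth1 was found in 99.5% or more of the thinned cells of both types as a mean of each age, so its rise was one of UMIs per cell, from 7.35 to 18.8 in myoepithelial and from 6.1 to 12 in vascular endothelial cells. No cell type is known to lack these genes, so no share of background RNA was set.

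Macrophages of the young mice divided the genes between them. Ma macrophages had more Hmox1, and 5 of the 7 genes tested were lower there than in Mb macrophages (adjusted p below 0.05 and at least 2-fold, the mouse as a block), against 15.8% of 1672 genes higher and 11.2% lower. Of these 5, Slc7a11 and Txnrd1 reached the filter on low counts in Mb macrophages only. Their place in the count is therefore not support apart from that filter. Hmox1 was 606, 1061 and 1807 CPM in Ma and 27.5, 98.4 and 231 CPM in Mb macrophages of Young A, B and C. It was higher in Ma macrophages in each mouse (log2 difference 3.60 ± 0.35, adjusted p = 7.57e-05). Slc7a11 had 0, 0 and 4 UMIs in Ma and 109, 24 and 18 UMIs in Mb macrophages, so it was close to absent in the former (log2 difference -5.05 ± 0.63, adjusted p = 3.76e-04). Fth1 was 8419, 12837 and 11327 CPM in Ma and 26878, 24722 and 24578 CPM in Mb macrophages (log2 difference -1.25 ± 0.19, adjusted p = 0.00125), whereas Ftl1 did not separate them (0.01 ± 0.16, adjusted p = 0.975). Srxn1 (-2.03 ± 0.55), Txnrd1 (-1.93 ± 0.40) and Sqstm1 (-1.04 ± 0.25) were lower in Ma macrophages. Those 3 calls were lost without the block, and leaving out Young A (Txnrd1 -1.75 and Srxn1 -1.65, both lost) or Young C (Sqstm1 -0.97, lost, and Srxn1, no longer tested) left 3 of the 5 called lower. The types were drawn by clustering on the same expression values, so these p-values are not independent evidence that the types differ.

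**Figure D5:**
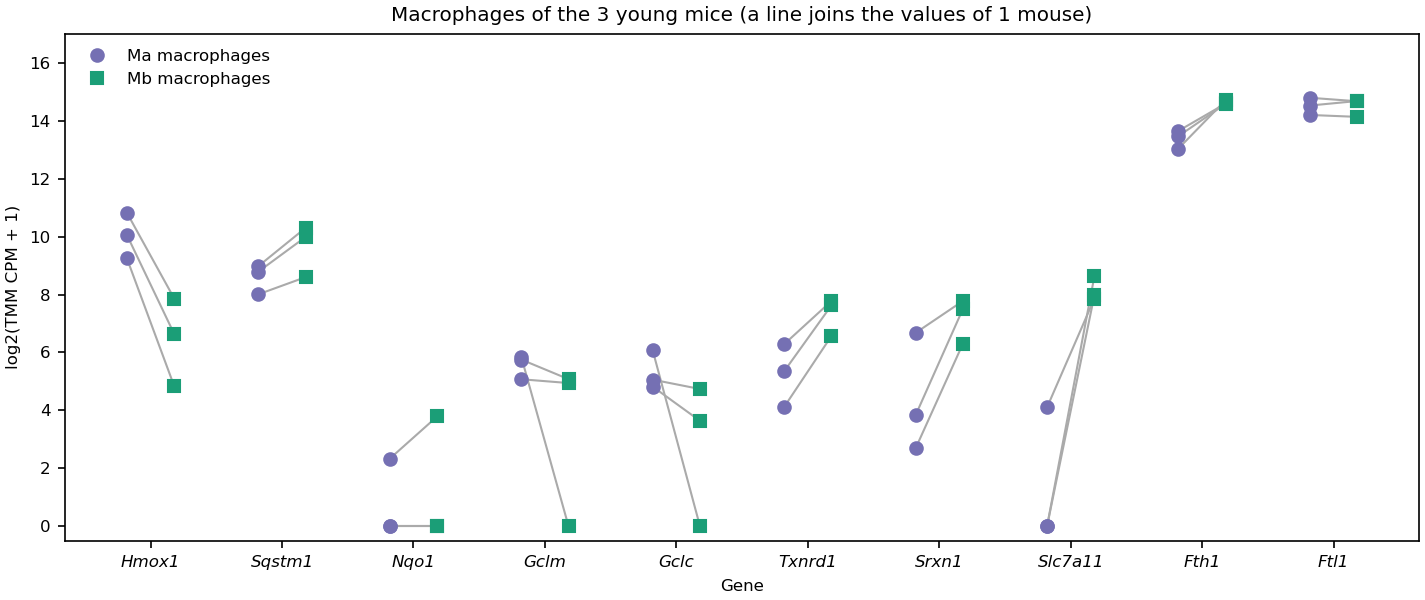
Level of each gene as log2(TMM-scaled CPM + 1) in Ma macrophages (circles) and Mb macrophages (squares) of the 3 young mice, with a line for each mouse. Hmox1 falls from Ma to Mb in every mouse, Slc7a11 and Fth1 rise, and Ftl1 is level.

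HS-AV cells, which carry markers of both luminal types, differed from both HS and AV cells in none of the 9 genes tested, against 1.15% of 8892 genes higher and 0.135% lower than both. No gene reached an unadjusted p of 0.05 in both edgeR contrasts in 1 direction, and DESeq2 also called none against both. Against AV cells alone 4 genes were lower in young mice, Nqo1 by the most (log2 difference -3.11 ± 0.62, adjusted p = 1.70e-04), then Hmox1, Srxn1 and Sqstm1. Nqo1 had 0, 3 and 1 UMIs in HS-AV and 25, 17 and 41 UMIs in AV cells of Young A, B and C. It reached the filter on low counts in AV cells only, so its call is not support apart from that filter. Young A had only 12 HS-AV cells. Gclc (1.92 ± 0.34, adjusted p = 2.72e-05) and Gclm (1.22 ± 0.28, adjusted p = 8.97e-04) were higher than in AV cells. In HS-AV cells of Young A, Gclc had only 2 UMIs. Of all genes, 8.78% were higher and 8.4% lower than in AV cells. Against HS cells no member was called by edgeR with all mice or by DESeq2, although Gclm and Srxn1 had an unadjusted edgeR p below 0.05. Gclm was called lower than in HS cells without Young B (log2 difference -1.11, adjusted p = 0.042) and with no filter on low counts (-0.82, adjusted p = 0.0487). Of all genes, 4.06% of all genes were higher and 1.05% lower. Hmox1, Sqstm1 and Srxn1 lost their calls against AV cells without Young C (log2 difference -0.81, -0.91 and -0.95), and Gclm without Young B (0.91). These 4 also lost them without the mouse as a block (-1.29, -0.99, -1.08 and 1.17), and Hmox1 did with DESeq2 (-1.42). HS-AV, HS and AV cells were drawn by clustering on the same expression values, so these p-values are not independent evidence that the types differ.

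Other genes of the pathway were counted by list. Of 10 genes of NRF2 and its regulators, 2 of 10 tested were higher in aged myoepithelial cells (12.8% of all genes), and 3 of 9 higher and 1 lower in vascular endothelial cells (14.7% and 12%). Nfe2l2 itself rose in myoepithelial cells (142 to 255 CPM as means, log2 change 0.97 ± 0.19, adjusted p = 0.00126) and in vascular endothelial cells (215 to 344 CPM, 1.03 ± 0.16, adjusted p = 4.39e-04), and so did Mafg (0.70 and 1.28). Maff, another small MAF gene, rose in HS cells, fibroblasts, vascular endothelial cells and pericytes (log2 change 0.64 to 1.45). Keap1, tested in 5 types, had log2 changes of -0.52 to 0.37 and Bach1, tested in 6, of -0.79 to 0.51, and no adjusted edgeR p was below 0.05. Slc3a2, the chain that holds SLC7A11 at the membrane, rose with it in myoepithelial (log2 change 0.60 ± 0.20, adjusted p = 0.0334) and vascular endothelial cells (0.70 ± 0.16, adjusted p = 0.00488). The transferrin receptor gene Tfrc was tested in 2 types and called in neither, and the iron exporter gene Slc40a1 was tested in AV cells alone and not called.

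Enzymes that remove peroxides and superoxide, a list of 23 genes, did not follow in 1 direction. In myoepithelial cells 4 of 20 tested were higher and 6 lower with age (12.8% and 14.8% of all genes), with a median log2 change of -0.28 beside 0.01 over all genes. Sod2, the mitochondrial superoxide dismutase, rose there (log2 change 0.89 ± 0.20) and in vascular endothelial cells (1.74 ± 0.18). Glrx, glutaredoxin, rose in myoepithelial (2.40), AV (1.87) and vascular endothelial cells (1.70). The secreted peroxidase gene Gpx3 fell in these 3 types (log2 change -1.96, -2.46 and -1.35), and Gpx8 of the endoplasmic reticulum fell in myoepithelial (-1.98) and vascular endothelial cells (-2.11).

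NADPH supply, conjugation and iron handling were counted in the same way. Of 6 NADPH genes, 2 rose in myoepithelial cells (12.8% of all genes), Pgd and Me1 (log2 change 1.43 and 2.00). In HS cells 1 of 6 rose (3.93%), Me1 (0.88), and in AV cells 2 of 6 rose (2.9%), Pgd and Tkt (0.98 and 0.83). In vascular endothelial cells 2 of 5 tested fell (12%), Tkt among them (-0.73). Of 10 conjugation and export genes, 4 of 10 tested fell in myoepithelial cells (14.8% of all genes), 1 of 10 in AV cells (3.26%) and 1 of 9 in fibroblasts (1.11%). In vascular endothelial cells 2 of 9 fell and 2 rose (12% and 14.7%), and in Mb macrophages the 1 tested, Gstm1, rose (0.931%). Gstm1 passed the filter on low counts there through the aged mice, since no young mouse reached it. Its rise in Mb macrophages is therefore not support apart from that filter. Ugdh, which makes UDP-glucuronate, fell in myoepithelial, AV and vascular endothelial cells and fibroblasts (log2 change -1.44 to -0.76), and Gstm1 fell in vascular endothelial cells (-0.69) and rose in Mb macrophages (2.88). Iron and heme handling, with 17 genes, had 3 of 11 higher in vascular endothelial cells (14.7% of all genes) and 1 of 11 lower in myoepithelial cells (14.8%).

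Genes whose level followed the members most closely were sought over the 77 sums of a mouse and a cell type with at least 20000 UMIs. Hmox1 was most like Zfand5 (Pearson r = 0.705), Nfe2l2 (0.685) and Vcam1 (0.678) among 4865 genes. Sqstm1 was also most like Zfand5 (0.735), then Cxcl1 (0.731) and Ifrd1 (0.717). Slc7a11 went with Slc15a3, Cxcl2 and Ccrl2 (0.714, 0.694 and 0.69), and Srxn1 with Ptgs2, Rap2b and Tgfbr1 (0.679, 0.636 and 0.621). Nqo1 went with Hey1, Rnd1 and Id1 (0.739, 0.69 and 0.662), Txnrd1 with Nfkb1, Tnip1 and Rsl1d1 (0.719, 0.707 and 0.67), and Gclc with Adam15, Tcf3 and Tex264 (0.738, 0.722 and 0.699). Gclm had the loosest neighbours, Adrm1, Znrf1 and Snrnp48 (0.568, 0.561 and 0.557). Fth1 was most like Ninj1, Tgfbi and Psap (0.835, 0.744 and 0.725) and Ftl1 like Aif1, Cd83 and Lilr4b (0.859, 0.857 and 0.847). Between members the closest pair was Fth1 and Ftl1 (0.813), followed by Srxn1 and Slc7a11 (0.637). The 77 sums share 7 libraries and their depth, so these values describe likeness and carry no test.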

How the data were processed

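Single-cell libraries (10x Genomics 3′ chemistry, version 2) were made from 7 mice. The authors deposited raw UMI counts, made with Cell Ranger 2.0 on mm10 after their filters on cells, and named the cell types. Doublets had been estimated by the authors, and no caller was run here. For each mouse and type with at least 3 cells the counts were added up. Genes passed filterByExpr, and edgeR 4.0.16 in R 4.3.3 (TMM, quasi-likelihood test, Benjamini-Hochberg over all genes tested) gave log2 changes, whose SE is the absolute change divided by the square root of F. DESeq2 1.42.0 was an alternative. Ratios and orders used exact permutation tests. Thinning to 2000 UMIs removed no cell. The fits were tested on simulated data: for the vascular endothelial comparison of 7864 genes, 94.9% of 4-fold and 60.8% of 2-fold changes were recovered, and for AV cells, of 11012 genes, 85% and 19%.

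Members and lists were chosen with earlier results of these data known. Besides the members, list genes called in at least 2 of 8 age comparisons are named, with Nfe2l2, Keap1, Bach1, Tfrc, Slc40a1 and Slc3a2. The list of autophagy partners of Sqstm1 is not reported here. Gene positions are from GENCODE vM21 (GRCm38) and promoters from RefSeq (GRCm38.p6). The p-values measure the spread between mice.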

Additional observations from a re-analysis of the deposited data

Results flagged for a closer look

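The age difference of 11 pairs of a gene and 2 cell types differed by the test of that difference within the same mice. Between myoepithelial and AV cells the log2 change was larger in myoepithelial cells for Srxn1 (4.23), Slc7a11 (3.04), Gclc (1.92), Sqstm1 (1.73) and Fth1 (0.98). Between fibroblasts and vascular endothelial cells it was smaller in fibroblasts for Hmox1 (-1.27) and Fth1 (-0.97). Between myoepithelial and vascular endothelial cells it was smaller in myoepithelial cells for Hmox1 (-0.89) and Txnrd1 (-0.90), and larger there for Sqstm1 (0.78) and Ftl1 (0.96).

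In 3 of 69 groups of aged mice 1 value stood apart by Dixon's test: Sqstm1 in HS cells of Aged B (219 CPM, low), Hmox1 in pericytes of Aged C (1528 CPM, high) and Sqstm1 in Mb macrophages of Aged D (4089 CPM, high, from 3 cells). Chance alone flags about 1 in 20 groups, here 3.45.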

How the results depend on the processing

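None of the 47 called pairs of a gene and a comparison changed direction under any alternative run. All kept their calls with RLE factors, with no fold minimum or 10 cells as the minimum, after thinning, and without ribosomal and mitochondrial genes, where these were run. DESeq2 lost 2 of 36 calls, no filter on low counts 1 of 47, and leaving out 1 mouse lost at least 1 call in 19 of the 47 pairs. DESeq2 called 2 genes higher in HS cells, 1 in AV cells and 2 in Mb macrophages. With no filter, 6 were higher in fibroblasts, 4 in pericytes, 2 in HS cells, 2 in Mb macrophages and 1 in AV cells, 1 was lower in AV cells, and 1 differed between HS and AV cells. The letters in the mouse names do not mark pairs (in no cell type did all pairs correlate above 0.1). A block of the letter gave 0 higher in HS cells and 1 each in AV cells, in pericytes and in fibroblasts. Without the mouse as a block, which is a true pairing of cell types within a mouse, 2 genes were lower in Ma macrophages, and 3, 1 and 1 differed between myoepithelial and AV cells, fibroblasts and vascular endothelial cells, and myoepithelial and vascular endothelial cells.

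Leaving out 1 mouse in turn gave 6 to 9 genes higher in myoepithelial cells, 8 to 9 in vascular endothelial cells, 2 to 5 in fibroblasts (5 without Young C), 1 to 3 in pericytes, 0 to 2 in HS cells, 0 to 1 in AV cells and 0 to 1 in Mb macrophages, 0 to 1 lower in AV cells and 3 to 5 lower in Ma macrophages. It gave 3 to 7 differing between myoepithelial and AV cells, 1 to 4 between fibroblasts and vascular endothelial cells and 3 to 4 between myoepithelial and vascular endothelial cells. The log2 Fth1 to Ftl1 ratio then differed with age by 1.29 to 1.42 in vascular endothelial cells, 0.49 to 0.80 in pericytes, 0.38 to 0.71 in myoepithelial cells and 0.06 to 0.31 in HS cells. It changed sign in AV cells (-0.036 to 0.18), fibroblasts (-0.089 without Young C and -0.07 without Aged C, to 0.12), Mb macrophages (-0.30 to 0.038) and T and B cells (-0.14 to 0.27). With 3 against 3 mice no exact p can go below 0.1. The cause of these changes was not tested. Few cells limit the precision in aged Mb macrophages (3 to 9 per mouse).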
